A study of Rattus norvegicus with 4 samples.

Results

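Nr4a1, Nr4a3, Jun and Junb are 4 immediate early genes that were read by 7 probe sets, of 720 named genes and 1263 probe sets other than controls on the arrays. Their probe sets were taken by exact gene symbol from the probe table: 2 for Nr4a1, 3 for Nr4a3, 1 for Jun and 1 for Junb. The RNA came from rats, under the tissue label brain, adrenal medulla, and was read on 4 single-channel oligonucleotide arrays. The groups were digested day 7, undigested day 7, digested day 1 and undigested day 1, with 1 array in each. The labels do not say what was digested, what was done to the samples before day 1, or the strain, sex and age of the animals, and the question behind the study is not stated either. These genes were chosen with their values on these arrays already known, so everything below is a description of 4 arrays, and no difference has a test or a spread between replicates.

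Immediate early genes are transcribed soon after a cell is stimulated, from factors already present in the cell and without new protein synthesis. Nr4a1, also called NGFI-B for its induction by nerve growth factor, and Nr4a3 code for orphan nuclear receptors that bind DNA as monomers at a response element known as the NBRE. Jun and Junb code for leucine zipper proteins that pair with Fos proteins to form the AP-1 factor. Jun is activated by the c-Jun N-terminal kinases, and Junb often acts as a weaker activator at sites that Jun also binds. In chromaffin cells of the adrenal medulla and in neurons, these genes respond to depolarisation, calcium, cyclic AMP and growth factors.

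RefSeq's promoter table (build GRCr8) held 2 of the 4 genes, Nr4a1 and Junb. Their promoters are shown because both genes are known to respond to cyclic AMP, and the letters TGACG, on either strand, are the core of the cyclic AMP response element. The 250 bases before the annotated start are given on the strand of the gene, chr7:134259888-134260137 (plus strand) for Nr4a1 and chr19:40080876-40081125 (plus strand) for Junb. Capitals mark TGACG or its reverse complement CGTCA, and in Junb also the TATAAA of a TATA box.
Nr4a1: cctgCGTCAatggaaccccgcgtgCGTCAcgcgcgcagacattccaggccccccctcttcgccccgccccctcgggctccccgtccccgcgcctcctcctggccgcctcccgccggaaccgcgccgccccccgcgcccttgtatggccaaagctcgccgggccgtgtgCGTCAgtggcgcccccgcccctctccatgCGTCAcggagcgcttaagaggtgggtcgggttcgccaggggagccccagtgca
Junb: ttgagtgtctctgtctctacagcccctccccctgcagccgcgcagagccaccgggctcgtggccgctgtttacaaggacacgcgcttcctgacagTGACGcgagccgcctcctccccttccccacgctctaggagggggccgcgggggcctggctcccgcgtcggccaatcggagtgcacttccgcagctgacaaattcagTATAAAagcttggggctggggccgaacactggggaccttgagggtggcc

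The Nr4a1 promoter held 4 matches to the core TGACG, all as CGTCA, with their first bases 246, 226, 82 and 53 bases before the start. The Junb promoter held 1, with its first base 155 bases before the start, and 1 TATAAA that began 49 bases before it. Of 33469 rat promoters of the same length, 18.2% held at least 1 core and 0.173% held 4 or more. The motif TATAAA, searched on the strand of the gene alone, was in 8.06% of them. Neither promoter held the full element TGACGTCA (1.59% of all promoters), an AP-1 site TGANTCA (6.34%), an NBRE written AAAGGTCA (1.24%) or a CArG box, the site of serum response factor (1.497%), each searched on both strands. A full element counts as a pair of cores where it occurs. A match in these letters is not evidence that a factor binds there.

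Signals were scaled to a common array median and floored at 51.8, and those under 104, which is 2 times the floor, are imprecise. Both day 7 arrays stood apart in some of their control probe sets. The 3′ to 5′ signal ratio of beta-actin was 1.35 (digested) and 2.66 (undigested) at day 7, and 1.48 (digested) and 1.42 (undigested) at day 1. The 9 hybridisation controls stood at a median log2 of -1.35 relative to the other arrays on the digested day 7 array, and at 0.33 to 0.57 on each of the others. The median log2 difference over the 632 analysed probe sets was 0.12 for digestion at day 1, -0.05 for digestion at day 7, 0.17 for the day in undigested samples and 0.04 for the day in digested samples. In the values as deposited, these medians shifted by -0.13, 0.14, -0.23 and 0.04. Of 12 chromaffin cell markers 6 were on the array, with summed signals, mostly of Th, of 237390 (digested) and 352324 (undigested) at day 7 and of 288783 (digested) and 270997 (undigested) at day 1. The median day difference of the 5 analysed was 0.27 in digested and 0.95 in undigested samples, where Dbh stood at 1.29 and Penk at 1.06. Npy went the other way, at -3.31 in digested and -0.61 in undigested samples, and Th stood at -0.51 and 0.21. The part of this in the day differences below was not tested. Probe sets naming the 10 adrenal cortex markers were 0 in number, so RNA from cortex could not be looked for. In bulk samples, fewer cells of a type and less RNA per cell cannot be told apart.

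Nr4a1 read higher in the digested than in the undigested sample at day 1 by both of its probe sets. The probe set U17254_at had a signal of 430.0 in the digested and 305 in the undigested sample at day 7, and of 424 in the digested and 222 in the undigested sample at day 1. Its lowest value was therefore the undigested day 1 sample, and the digested samples were nearly level with each other. The probe set U17254_g_at, drawn from the same sequence record, had signals of 189, 515, 305 and 145 on the arrays in the same order. It too was lowest in the undigested day 1 sample, but its highest value was the undigested day 7 sample, and the digested day 7 signal lay below the digested day 1 signal.

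At day 1 the digested over undigested difference of Nr4a1 was a log2 of 0.94 (1.91-fold) by U17254_at and 1.07 (2.10-fold) by U17254_g_at. These were the 14th and 11th highest of the 632 analysed probe sets in that comparison. Both probe sets are among the 316 dimmer ones, of which 6.96% differed at least 2-fold there, against 0% of the 316 brighter ones. Relative to the median of all analysed probe sets the differences were 0.81 and 0.95, and U17254_g_at stayed at or above 2-fold under 1 of 5 alternative scalings and floors. The gap between them was 0.14, against a pooled SD between probe sets of a gene of 0.32 over 125 genes. At day 7 the probe sets parted. U17254_at gave a 1.41-fold higher signal with digestion (log2 0.49), whereas U17254_g_at was 2.72-fold lower (log2 -1.44), a gap of 1.94. This gap was the 45th widest among all 276 genes with several probe sets, dim ones included, for which the median was 0.76. Day 7 over day 1 in undigested samples, both read higher, by a log2 of 0.46 for U17254_at and 1.83 (3.55-fold) for U17254_g_at. In digested samples the day difference was 0.020 for U17254_at and -0.69 for U17254_g_at. U17254_g_at passed the filter on dim values only through its undigested day 7 signal, so that it had to read high on that array. The digestion difference at day 1, on which the probe sets lay closest, uses neither day 7 array. It too was known when the genes were chosen. Both probe sets come from 1 sequence record and read the same RNA, so their closeness is not independent support. With a floor at the 40th percentile the undigested day 1 value of U17254_g_at was set to the floor, and its difference was 0.91.

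Nr4a3 gave opposite pictures at day 7 by its brightest probe set and by its dim ones. The brightest, X86003_at, had a signal of 717 in the digested and 65.2 in the undigested sample at day 7, and of 229.9 in the digested and 291 in the undigested sample at day 1. The digested day 7 sample was the highest and the undigested day 7 sample the lowest, near the floor, while the day 1 samples were close to each other. The probe set rc_AI176710_at had signals of 33.5, 134, 78.2 and 58.8 on the arrays in the same order. The probe set rc_AI145834_at had 37.1, 157, 23.7 and 14.1. By both dim probe sets the undigested day 7 sample was the highest, the reverse of X86003_at, and the digested day 7 sample lay under the floor.

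The digested over undigested difference of Nr4a3 at day 7 by X86003_at was a log2 of 3.46 (11.0-fold), or 3.51 relative to the median of all. Its size is imprecise: it rests on an undigested signal of 65.2, near the floor, and was 2.15 with a floor at the 40th percentile. X86003_at passed the filter on dim values only through its digested day 7 signal, so that it had to differ. The other probe sets, which did not pass the filter on dim values, gave -1.37 for rc_AI176710_at and -1.60 for rc_AI145834_at, with the digested values set to the floor. Both became 0 with a floor at the 40th percentile. The spread of 5.06 between the 3 probe sets of Nr4a3 was the widest among all 276 genes with several probe sets, for which the median was 0.76. Over day 7 against day 1, X86003_at was 3.12-fold higher in digested samples (log2 1.64) and 4.46-fold lower in undigested samples (log2 -2.16, or -0.84 with the higher floor). In undigested samples rc_AI176710_at and rc_AI145834_at were instead higher at day 7, by a log2 of 1.19 and 1.60. With the higher floor both of these were 0. At day 1 the digestion difference was -0.34 by X86003_at and 0.41 by rc_AI176710_at, and rc_AI145834_at lay under the floor on both arrays.

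**Figure D1:**
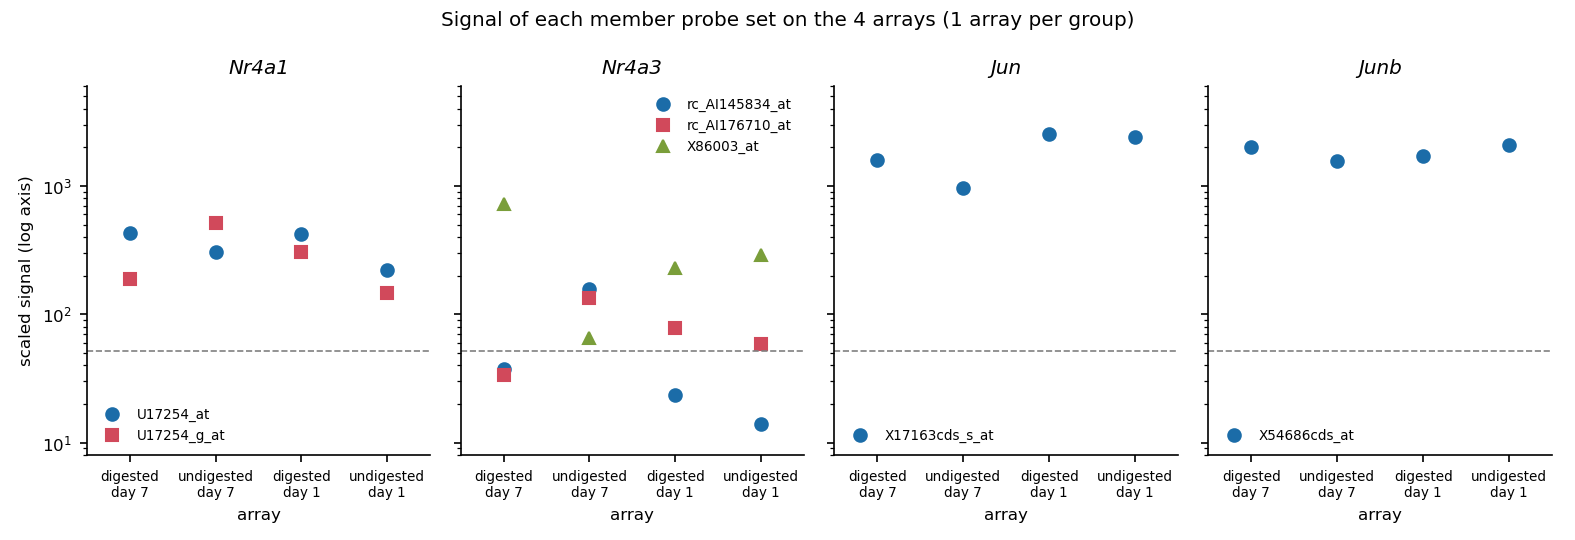
Scaled signal (log axis) of the 7 probe sets of Nr4a1, Nr4a3, Jun and Junb on each of the 4 arrays, with 1 point per array and no replicates. The dashed line is the floor of 51.8. On the undigested day 7 array Nr4a3 X86003_at is at 65.2, whereas the other Nr4a3 probe sets reach 134 and 157 there.

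Jun read lower at day 7 than at day 1 in both digestion states. Its only probe set, X17163cds_s_at, had a signal of 1599.6 in the digested and 971 in the undigested sample at day 7, and of 2534 in the digested and 2410.3 in the undigested sample at day 1. The day 1 samples were nearly equal, and both day 7 samples lay below them. The suffix _s_at is the manufacturer's mark for probes that may match more than 1 transcript. Day 7 over day 1, Jun was 1.58-fold lower in digested samples (log2 -0.66) and 2.48-fold lower in undigested samples (log2 -1.31). Relative to the median of all analysed probe sets these were -0.71 and -1.48. At day 7 the digested sample was 1.65-fold higher than the undigested one (log2 0.72). At day 1 the difference was 0.072, which turned to -0.055 in the values as deposited and was also negative after quantile normalisation and cyclic loess. Jun was in the brighter part of the analysed set, the 316 brightest probe sets, of which 3.48% differed at least 2-fold between the days in digested samples and 9.49% in undigested samples.

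Junb varied least of the members. Its probe set X54686cds_at had a signal of 2005 in the digested and 1572 in the undigested sample at day 7, and of 1695 in the digested and 2065 in the undigested sample at day 1. The range over the 4 arrays was a log2 of 0.39, against 1.38 for Jun, 0.96 and 1.83 for the probe sets of Nr4a1 and 3.46 for X86003_at of Nr4a3. The digested over undigested difference of Junb was 0.35 at day 7 and -0.28 at day 1, and the day difference was 0.24 in digested and -0.39 in undigested samples. None of these reached 2-fold. Jun and Junb shared their lowest array, undigested day 7, but differed at their highest, which was digested day 1 for Jun and undigested day 1 for Junb.

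**Figure D2:**
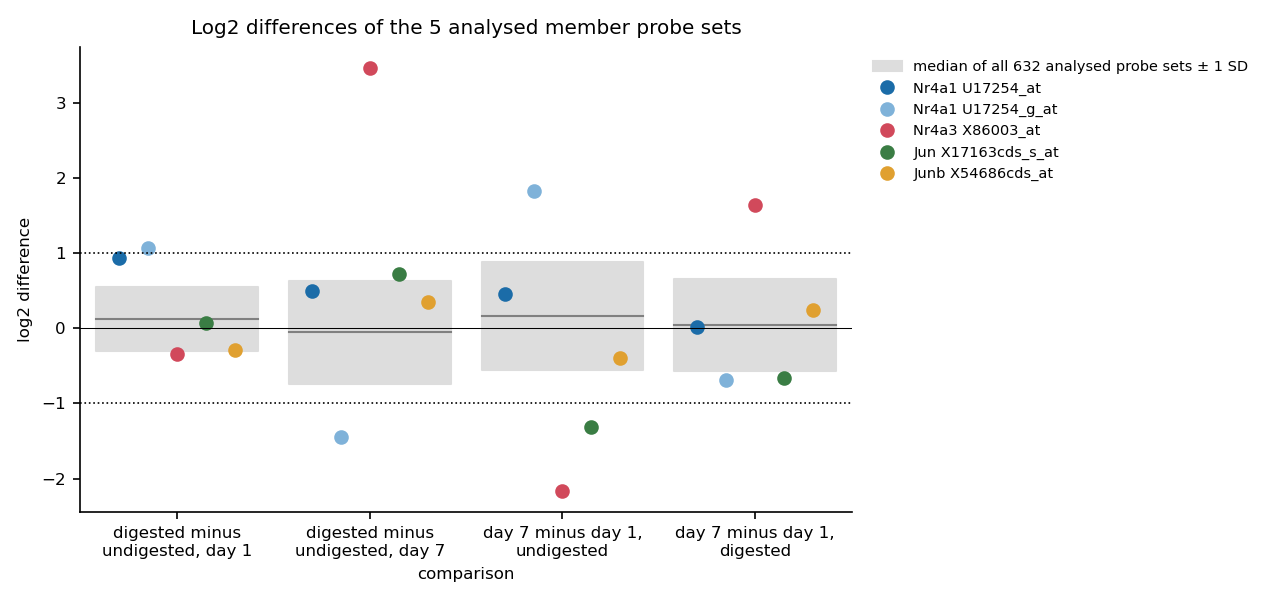
Log2 differences of the 5 member probe sets that passed the filter, in 4 comparisons. The grey band is the median ± 1 SD over all 632 analysed probe sets, which is a spread across probe sets and not across samples, and dotted lines mark 2-fold. Nr4a3 X86003_at stands at 3.46 for digestion at day 7 and at -2.16 for the day in undigested samples, while Junb stays between -0.39 and 0.35.

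Of the 5 member probe sets analysed, 1 differed at least 2-fold with digestion at day 1, U17254_g_at of Nr4a1, against 3.48% of all analysed probe sets. At day 7 the count was 2 of 5, that probe set and X86003_at of Nr4a3, against 11.4%. Between the days X86003_at alone passed in digested samples, against 8.07%, and it passed with U17254_g_at and Jun in undigested samples, 3 of 5, against 13.3%. The probe sets of Nr4a1 and Nr4a3 are among the 316 dimmer analysed probe sets, of which 6.96% passed with digestion at day 1 and 19% at day 7, and 12.7% passed between the days in digested and 17.1% in undigested samples. U17254_g_at passed the filter on dim values only through its undigested day 7 signal, and X86003_at only through its digested day 7 signal. The members were also chosen from these contrasts, so the counts say nothing further about them. The change of the digestion difference from day 1 to day 7 passed 2-fold in 2 of 5, against 14.4% of all analysed and 22.5% of the dimmer ones. It was 3.80 for X86003_at of Nr4a3 and -2.52 for U17254_g_at of Nr4a1. It was -0.44 for U17254_at, 0.65 for Jun and 0.64 for Junb.

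The Jun family gene Jund, which codes for the partner of Fos proteins that is present in most resting cells, had the pattern of Jun more than that of Junb. Its probe set D26307cds_at had signals of 359 in the digested and 104.0 in the undigested sample at day 7, and of 418 in the digested and 372 in the undigested sample at day 1. The undigested day 7 sample was the low one, with a log2 difference of -1.84 to undigested day 1 and of 1.79 for digested over undigested at day 7. Both differences rest on that signal of 104.0, barely above 2 times the floor, so their size is imprecise. In the digested samples the day difference of Jund was -0.22, against -0.66 for Jun.

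**Figure D3:**
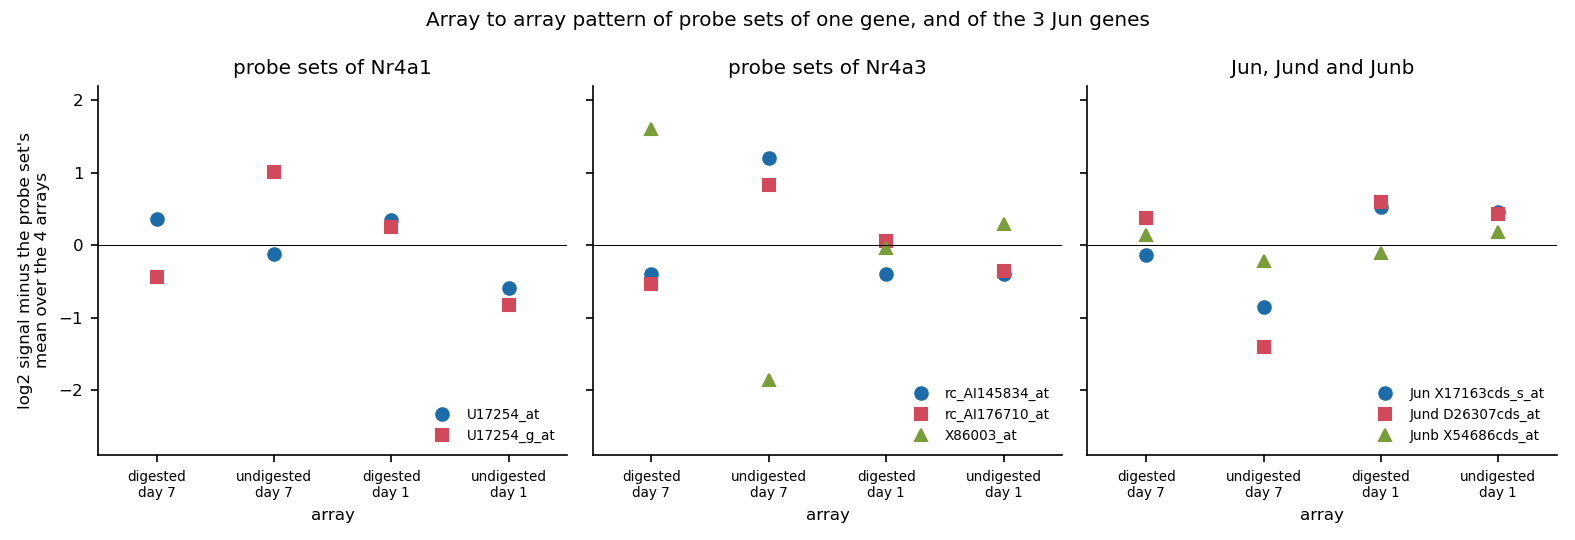
Log2 signal minus each probe set's own mean over the 4 arrays, for the 2 probe sets of Nr4a1, the 3 of Nr4a3 and 1 each of Jun, Jund and Junb. Values under the floor were set to it. The probe sets of Nr4a3 lie on opposite sides of 0 on both day 7 arrays, while Jun and Jund are lowest on the undigested day 7 array.

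Among the other immediate early transcription factors, 6 of the 23 listed genes were on the array and 5 were analysed, each by its brightest probe set. With digestion at day 1, 0 of 5 passed 2-fold in either direction. At day 7 Jund alone passed, higher in the digested sample. Between the days in undigested samples 1 passed higher, Egr1, a zinc finger factor, with a log2 of 1.02 by AF023087_s_at (its next probe set, U75398_s_at, gave 0.049), and 1 lower, Jund. In digested samples 0 of 5 passed. The list's median was -0.10 for digestion at day 7 and 0.065 at day 1, beside -0.05 and 0.12 over all analysed probe sets. For the day it was 0.30 in digested and 0.47 in undigested samples, beside 0.04 and 0.17.

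Fos, the classic partner of Jun, was read by 3 probe sets that did not share a pattern. Its brightest probe set, X06769cds_g_at, had signals of 742, 822, 849 and 589 on the digested day 7, undigested day 7, digested day 1 and undigested day 1 arrays. Its probe set X03347cds_g_at had 697, 298, 707 and 619 on the same arrays, so the undigested day 7 sample was lowest there. The digestion difference of Fos at day 7 was -0.15 by the first, 1.23 by the second and 0.058 by X06769cds_at. Cebpb, a leucine zipper factor of stress and cytokine responses, split in the same place: the difference at day 7 was -0.10 by X60769mRNA_at and 1.19 by S77528cds_s_at. For Fosl2, a Fos family member, no difference exceeded a log2 of 0.45 in size.

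The undigested day 7 array read lower by probe sets with cds in their names than by those whose names start with rc_. Among 68 analysed probe sets with cds in the name, the median day difference in undigested samples was -0.20, and 16.2% were at least 2-fold lower at day 7. Among 104 whose names start with rc_ the median was 0.34, and 2.88% were at least 2-fold lower. Over all analysed probe sets 6.01% were. The probe sets of Jun, Junb and Jund, and the Fos and Cebpb probe sets that read low on this array, have cds in their names, but so does X06769cds_g_at of Fos, which did not read low there. The dim Nr4a3 probe sets, which read high on it, start with rc_, and the names of X86003_at and the Nr4a1 probe sets hold neither mark. In digested samples the median day differences were -0.044 for cds and -0.077 for rc_. The beta-actin ratio of 2.66 belongs to the same undigested array, where the Gapdh and hexokinase ratios were 1.18 and 1.40. Whether the kind of probe set or the RNA of this array has a part in the differences of Nr4a3, Jun and Jund was not tested.

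Few genes were measured of the pathways that act on immediate early genes, and their counts are to be read beside the shares of all analysed probe sets given above, 3.48% to 13.3%. Of 30 listed genes of the MAP kinase and JNK pathway 8 were analysed, and 0 passed 2-fold in any of the 4 comparisons. Mapk9, which codes for a c-Jun N-terminal kinase, was 0.82 higher on the log2 scale in the digested sample at day 7 and stood at 0.068 at day 1. The medians of this list were 0.041 and 0.072 for digestion at day 7 and day 1, and 0.31 and 0.063 for the day in digested and undigested samples. Of 32 listed genes of calcium, cyclic AMP and CREB signalling 13 were analysed, and 1 passed, Camk4, a calmodulin-dependent kinase that phosphorylates CREB, lower at day 7 in digested samples (log2 -1.14). Calm3, one of the calmodulin genes, had a log2 difference of 0.998 for digestion at day 7. Medians of the CREB list, in the same order, were -0.32, 0.19, -0.12 and 0.30.

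Of 27 listed activity-induced effector genes 4 were analysed, and 1 passed 2-fold, Cited2, a transcription co-regulator gene, higher at day 7 in digested samples (log2 1.47). Bdnf, the neurotrophin gene, kept within a log2 of 0.25 either way. The list's medians, in that order, were -0.26, 0.067, -0.24 and 0.060. Of 29 other nuclear receptor genes 4 were analysed. Among these Rarb, a retinoic acid receptor gene, passed 2-fold for digestion at day 7 (log2 1.91) and for the day in undigested samples (log2 -1.62), and 0 of 4 passed in the other comparisons. Both Rarb differences rest on an undigested day 7 signal of 107.8, close to 2 times the floor, so their size is imprecise. The medians of these 4 were 0.042, 0.052, 0.20 and 0.24. Of 21 genes with reported NR4A or AP-1 binding sites 5 were analysed. With digestion 0 passed at day 1, and 1 passed lower at day 7, Npy, with a log2 of -2.69 and a digested signal of 58.2. Between the days 2 were at least 2-fold lower in digested samples, and 2 were higher and 1 lower in undigested samples. The medians of these 5 were -0.53, 0.095, -0.51 and 0.21.

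The genes nearest to each member in pattern over the 4 arrays were named from 381 genes by the distance between centred log2 values, which describes 4 values and nothing else. For Nr4a3 by X86003_at they were Atp2b1, a plasma membrane calcium pump gene, at 1.12, Tgfbr1, a TGF-beta receptor gene, at 1.17 and Rarb at 1.18. All were low on the undigested day 7 array, with signals of 144, 93.3 and 107.8, but the distances exceed 1, so none followed Nr4a3 closely. For Jun they were Ckb, the brain-type creatine kinase gene, at 0.28, Glul, the glutamine synthetase gene, at 0.31 and Igfbp6, a gene of an insulin-like growth factor binding protein, at 0.38. For Nr4a1 by U17254_at they were Syt9, a synaptotagmin gene, at 0.33, Clcn7, a chloride transporter gene, at 0.33 and Hif1a, the hypoxia factor gene, at 0.35. For Junb they were Ceacam1, a cell adhesion gene, at 0.099, Rasa2, which codes for a GTPase-activating protein of Ras, at 0.105 and Rb1, the retinoblastoma gene, at 0.145. Between members the distances ran from 0.93, for Nr4a1 and Junb, to 2.34, for Nr4a1 and Nr4a3. Each had nearer genes outside the set than within it. With 381 genes searched outside, that was likely in advance and does not show whether the members share a pattern.

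Markers of other cell types moved between the arrays too. Summed signals of 12 neuron markers on the array were 129038 on the digested day 7, 160001 on the undigested day 7, 207582 on the digested day 1 and 193259 on the undigested day 1 array. Snap25, a gene of synaptic vesicle fusion, made up much of these sums, with 61000.2, 56595, 102213 and 96677, and the list's median day difference was -0.38 in digested and -0.035 in undigested samples. The 10 analysed went both ways, from -0.77 for Snap25 to 0.69 for Nefh between the days in undigested samples, where 0 passed 2-fold. In digested samples 1 passed higher, Slc32a1 (1.17), and 2 lower, Syn2 (-1.33) and Nefm (-1.04). With digestion at day 7, 2 passed, both higher, Grin1 (1.39) and Slc32a1 (1.62). The list's median in that comparison went the other way, at -0.45, beside -0.05 over all analysed probe sets. Summed signals of 5 astrocyte markers were 3871, 3119, 7402 and 7218 on the same arrays, mostly Glul, which neared Jun in pattern. Those of 4 myelinating glia markers were 2566, 3476, 2486 and 2453. Of 9 immune cell markers 2 were on the array, summing to 265, 318, 21.9 and 146 without the floor. They were Itgam, with 93.9, 18.4, 7.92 and 123, and Il1b, with 172, 300, 14.0 and 22.7. Neither passed the filter on dim values and both had signals under the floor, so these sums are imprecise. The 1 endothelial or connective tissue marker was under the floor on all arrays. The part of these cells in the levels of Jun and the NR4A genes was not tested.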

How the data were processed

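Total RNA of 4 rat samples was read on single-channel oligonucleotide arrays. The deposited values are linear signal intensity per probe set. The signal algorithm and the authors' scaling are not given in the sources used here, and no genome build is named. Gene symbols are those of the platform's probe table, and 1132 of its identifiers were found in a RefSeq gene table (GRCr8) with 0 symbols changed.

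The medians of the 1263 probe sets other than controls were made equal on the 4 arrays. Values under the 20th percentile of all scaled values, a signal of 51.8, were set to it before log2. The analysis kept 632 probe sets whose mean log2 value reached the median over probe sets, a signal of 229. No difference has a test, because each group held 1 array, and a log2 difference of 1 or more in size was counted. No probe set was shown to be above background, and the number of arrays limits the precision.

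The members and gene lists were chosen with earlier results of these data known, and all member probe sets are given. For each member, the 3 genes nearest in pattern are named by the Euclidean distance between centred log2 values. From each list, genes could be named from the 4 with the widest difference and no value at the floor, by their brightest probe sets. All probe sets of the immediate early transcription factors were also inspected, and those named beyond the rule, the Fos, Egr1 and Cebpb probe sets that are not the brightest and Fosl2, were chosen after their values were seen, as was the grouping of probe sets by name. Among the cell type markers Th, Snap25, Nefh, Itgam and Il1b were likewise named beyond the rule, after their values were seen. The alternatives were values as deposited, quantile normalisation, cyclic loess (limma 3.58.1 in R 4.3.3), a 40th percentile floor, an offset replacing the floor, no filter, and averaging a gene's probe sets. Other steps used Python 3.11.15, numpy 2.4.6, pandas 2.3.3 and matplotlib 3.10.9, and were tested on simulated data.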

Additional observations from a re-analysis of the deposited data

Results flagged for a closer look

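Among the members, 2 probe sets passed 2-fold in opposite directions under the same contrast, with no value at the floor. With 1 array per group the difference between the contrasts was not tested. For Nr4a1 by U17254_g_at the digestion difference was -1.44 at day 7 and 1.07 at day 1, a change of -2.52, where U17254_at gave -0.44. The value at day 1 stayed at or above 2-fold in 1 of 5 alternatives. In the analysed set, 0.475% of probe sets passed 2-fold both ways with digestion. U17254_g_at was in that set only through its undigested day 7 signal, so it had to read high on that array. For Nr4a3 by X86003_at the day difference was 1.64 in digested and -2.16 in undigested samples, so that the digested value exceeded the undigested one by 3.80. The dim probe sets of Nr4a3 gave -1.60 (rc_AI145834_at) and -1.78 (rc_AI176710_at) for the same change, the opposite direction. With a floor at the 40th percentile both became 0, and the undigested value of X86003_at was -0.84, short of 2-fold. No other analysed probe set passed 2-fold in opposite directions between the days (1 of 632, 0.158%). X86003_at was in the analysed set only through its digested day 7 signal, so that it had to differ. The share therefore does not show how rare its pattern is. The low undigested day 7 signal, 65.2, stood on the array with the beta-actin ratio of 2.66. The Gapdh and hexokinase ratios there were 1.18 and 1.40, and the part of that array's RNA was not tested.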

How the results depend on the processing

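No paired analysis was possible because the labels give no replicate numbers by which samples could be paired. The pairs of digested and undigested arrays within a day are the comparisons themselves, and no additive model of both factors was run here. Of 125 values of analysed member probe sets under 5 alternatives, 119 moved by less than the pooled SD between probe sets of a gene. The other 6 were of Nr4a3 X86003_at. With a floor at the 40th percentile its log2 differences were 2.15 for digestion at day 7, -0.84 for the day in undigested samples, no longer 2-fold, and 2.49 for the change of the digestion difference. With an offset in place of the floor they were 2.72, -1.55 and 2.999. The digestion difference of Nr4a1 U17254_g_at at day 1 stayed at or above 2-fold in 1 of 5 alternatives, with a lowest value of 0.86.

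Taking the mean over all probe sets of a gene moved more. Nr4a3 became 0.16 for digestion at day 7, from 3.46 by its brightest probe set, and 0.024 at day 1, from -0.34. For the day it became 0.35 in digested samples, from 1.64, and 0.21 in undigested samples, from -2.16. Its change of the digestion difference became 0.14, from 3.80. The sign of Nr4a3 thus turned for digestion at day 1 and for the day in undigested samples. Nr4a1 became -0.47 for digestion at day 7, from 0.49. For the day it became 1.14 in undigested samples, from 0.46, and -0.33 in digested samples, from 0.020. Its change of the digestion difference became -1.48, from -0.44. The sign of Nr4a1 thus turned for digestion at day 7 and for the day in digested samples. Without the filter on dim probe sets, 208, 273, 284, 242 and 366 of 1263 differed at least 2-fold for digestion at day 1 and day 7, the day in undigested and digested samples and the change, against 22, 72, 84, 51 and 91 of 632. The pooled SD between probe sets of a gene was then 0.67, 0.83, 0.79, 0.77 and 1.099, with more dim probe sets in it.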
